A study of Mus musculus with 12 samples.

Results

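Histone genes were taken as every protein-coding row of the deposited gene table whose symbol carries a histone name, which gave 81 of 55421 genes. They fell into 62 replication-dependent genes, 9 variant genes, H2afx, which makes both kinds of transcript and was kept apart, and 9 genes of testis or germ line. Polyadenylated RNA had been sequenced from MOC2, a mouse oral squamous cell carcinoma line, in 12 libraries of 4 groups with 3 libraries each. The derivative MOC2-25 is labelled EV-proficient and MOC2-27 EV-deficient, where EV stands for the extracellular vesicles that cells shed. The release of these vesicles was blocked genetically in the second derivative by a change that the labels do not name. Each derivative was sampled as a control, with DMSO as its treatment label, and after 48 h in 600 nM of the taxane paclitaxel. Paclitaxel locks microtubules in place, and it was given to make the cells senescent. All 4 groups were grown in the same medium with serum, hydrocortisone, cholera toxin and growth factors. Each EV label is 1 derivative, so a difference between the labels cannot be told apart from a difference between 2 derivatives of the line, and nothing states that the libraries of a group came from separate cultures.

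Replication-dependent histone genes supply the histones that package newly copied DNA and are transcribed mainly in S phase from gene clusters, without introns. Their mRNAs end in a short stem-loop in place of the poly(A) tail of other mRNAs. SLBP binds that stem-loop, and a particle built around the U7 small nuclear RNA directs the cut just after it. Variant histones, such as H3.3, H2A.Z, macroH2A and H1.0, are deposited outside DNA replication as well, and their mRNAs carry a poly(A) tail. A library selected with oligo-dT therefore holds replication-dependent genes through transcripts that run past the stem-loop and gain a tail, or through unselected RNA that is carried along, and the level of such a gene in it is not the level of its stem-loop mRNA.

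Before any comparison, 1 feature of the libraries has to be stated. A row that the authors added to the table for a dngfr sequence, whose role the labels do not state, went against the EV labels across treatments. It made up 5.29 to 11.4 CPM (the usual scaling of a count to the library total) in EV-proficient DMSO and 10.9 to 14.2 in EV-deficient paclitaxel libraries, against 2.604 to 3.998 in EV-proficient paclitaxel and 1.68 to 2.33 in EV-deficient DMSO libraries. Whether a treatment or EV label was exchanged was not tested, and each group is named below as its label names it. Paclitaxel against DMSO averaged over both EV labels uses the same 6 libraries on each side if the EV labels of either treatment were exchanged. Each comparison of paclitaxel with DMSO within a derivative would then pair other groups. The comparison of the EV labels within that treatment would change sign. Library totals ran from 23263472 to 62955757 gene counts, and histone values are given as CPM of the scaled library size, on which a floor of 3 counts was 0.0492 to 0.121 CPM. The epithelial markers Krt8, Krt18, Cdh1 and Epcam were abundant in all libraries, the lowest being Epcam at 386 to 839 CPM, and the squamous markers Krt14, Krt17 and Sfn had 77.3 to 730, 138 to 374 and 48.6 to 360 CPM. The basal markers Krt5 and Trp63 reached at most 8 and 11 counts. Of 10 markers of other cell types none passed 4.82 CPM, and Cd3e and Adgre1 had at most 4 counts in any library. The summed level of those 10 was 3.52 to 4.84 CPM in DMSO and 7.49 to 8.79 CPM in paclitaxel libraries, and its part in the results below was not tested. In bulk RNA, fewer cells of a kind and less RNA per cell cannot be told apart.

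The stem-loops of members described below are shown first, because this element sets replication-dependent mRNAs apart from other mRNAs. The motif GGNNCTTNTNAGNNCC, searched on the transcript strand only, was found in 43 of the 62 replication-dependent genes, in H2afx and in none of the 9 variant genes. It occurs somewhere in the transcripts of 0.622% of the 21866 protein-coding genes of the GENCODE M21 annotation (build GRCm38). Of the 19 replication-dependent genes without a match, 11 have a short model of 1 exon, such as Hist1h4k with 312 bases and Hist1h2bn with 381. The search covered annotated transcripts only, and whether a stem-loop lies past the end of these models was not tested. The 43 matches took 8 forms, and in all 43 the arms on both sides of the loop were complementary. The form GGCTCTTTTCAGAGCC was shared by 24 genes of the H1, H2A, H2B and H3 types, and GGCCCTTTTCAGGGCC by 7 H4 genes. Below, capitals mark the stem-loop and lower case the 5 bases on each side, read 5′ to 3′ from the annotated transcripts.
Hist1h1c, chr13:23739507-23739532, plus strand: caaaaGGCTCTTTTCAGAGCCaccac
Hist1h4i, chr13:22040961-22040986, minus strand: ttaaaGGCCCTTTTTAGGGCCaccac
Hist3h2ba, chr11:58949344-58949369, plus strand: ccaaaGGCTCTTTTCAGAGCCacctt
Hist1h2ac, chr13:23683472-23683497, minus strand: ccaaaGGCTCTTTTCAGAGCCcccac
Hist1h4j, chr13:21735432-21735457, plus strand: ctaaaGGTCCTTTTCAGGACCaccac
H2afx, chr9:44335235-44335260, plus strand: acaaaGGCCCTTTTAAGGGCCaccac
The H1, H2A and H2B genes in this set carry the same 16 bases, the H4 genes differ from them in the stem or the loop, and H2afx carries the stem of Hist1h4i.

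How far an annotated transcript runs past the stem-loop went with how many reads it had. Among the 43 genes with the motif, 22 have a gene model that ends within 100 bases of it, and these had a median of 57.5 reads over the 12 libraries. The other 21 run over 100 bases further and had a median of 360 reads. Hist1h1c, for example, is annotated for 840 bases past its stem-loop, Hist1h4i for 330 and Hist1h1d, a sparser H1 gene, for 4884. The reads were not scaled by length, so a longer model can collect more of them. Most of the 22 short models also have fewer than 50% of their stretches of 50 bases to themselves. Most of the 21 longer ones have more. The parts of length, of shared sequence and of transcripts that run past the stem-loop in the difference were not tested. The hexamer AATAAA, the usual signal for poly(A) addition, lay in the last 40 bases of a transcript of 13 of the 62 replication-dependent and 7 of the 9 variant genes, and of 64.1% of all protein-coding genes. A count covers only the annotated stretch, so a read beyond a short gene model is not counted for that gene.

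**Figure D1:**
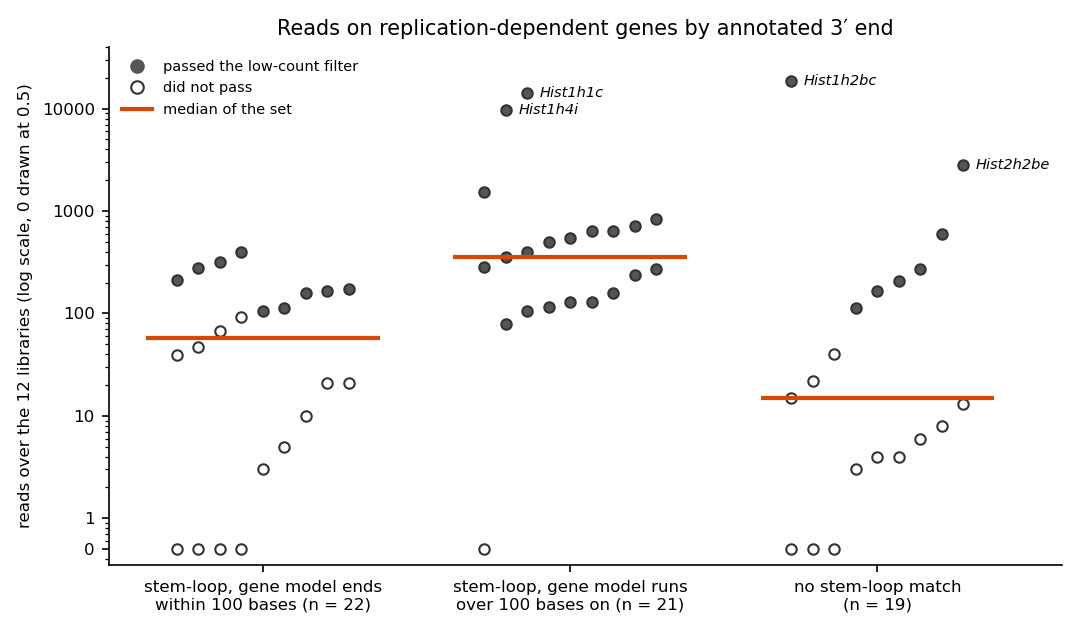
Reads summed over the 12 libraries (log axis, 0 drawn at 0.5) for the 62 replication-dependent histone genes, split by whether the annotated transcript ends within 100 bases of the stem-loop, runs further, or holds no match. Filled points passed the low-count filter, and bars are medians. The medians are 57.5 reads for the 22 short models, 360 for the 21 longer ones and 15 for the 19 without a match, among which Hist1h2bc has the most reads of any replication-dependent gene. Of these 19, 11 have a short model of 1 exon, and a stem-loop past its annotated end would not be found.

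Of the 62 replication-dependent genes, 36 passed the low-count filter and were tested. Of the other 26, 8 had no read in any library, and 16, these 8 included, had at most 3 in every library. All 9 variant genes and H2afx were tested, and none of the 9 testis or germ line genes was, 6 of which had no read. Near-identical copies limit what can be counted: 5 replication-dependent genes have no stretch of 50 bases of their own among annotated transcripts, and all 5 were at 0. The 29 genes with fewer than 50% unique stretches had a median of 21 reads and the 28 with more had a median of 295. A gene that passed the filter through reads in a single group had to differ between groups, so counts over the 36 describe those genes and not all 62. The least abundant gene tested, Hist1h2ae, had a mean of 0.139 CPM, and the most abundant gene not tested, Hist1h3a, had 0.158 CPM.

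A few genes held most of the replication-dependent reads. Hist1h2bc, an H2B gene, had 33.1% of them, Hist1h1c, which encodes linker histone H1.2, had 25.0%, and Hist1h4i, an H4 gene, had 17.2%. With Hist2h2be, Hist3h2ba and Hist1h1d, 6 genes held 84.3% of the reads, and 10 genes held 88.7% once Hist1h2bg, Hist1h4j, Hist3h2a and Hist1h4k were added. The types were very unequal. Over the 12 libraries the 15 H2B genes summed to 44.1 CPM, whereas the 17 H2A genes, their partners in the nucleosome, summed to 1.99 CPM and only 3 of them were tested. Genes of the H1, H4 and H3 types summed to 27.6, 21.8 and 3.43 CPM.

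Per kilobase of exon 4 variant genes stood highest. H3f3b and H3f3a, which both encode H3.3, had 271 and 57.6 reads per kilobase of exon at the CPM scale, H2afz, which encodes H2A.Z, had 160, and H1f0, the linker histone of differentiated and resting cells, had 101. On the same scale Hist1h2bc had 28.3, Hist1h4i 23.4, H2afx 22.8, H2afv (a 2nd H2A.Z gene) 22.6 and Hist1h1c 15.8, and Hist3h2ba came next among replication-dependent genes with 4.40. H2afy and H2afy2, which encode the macroH2A histones, had 15.4 and 6.76, and the variants H2afj and H1fx had 3.05 and 0.909.

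Summed over the class, replication-dependent reads were more frequent under paclitaxel in both derivatives. The sum was 57.5, 68.6 and 78.5 CPM in EV-proficient DMSO libraries and 103, 92.5 and 119.9 CPM under paclitaxel. In the EV-deficient derivative it was 67.0, 65.7 and 74.2 CPM in DMSO libraries and 156, 111 and 193 CPM under paclitaxel. The treated and control libraries did not overlap in either derivative, and the EV-deficient paclitaxel libraries spread most. Most of the EV-proficient difference was that of Hist1h2bc: without this gene, an alternative chosen after seeing the data, the sums were 45.5 to 61.5 CPM against 53.4 to 66.3 CPM, which overlap, and the ratio of the means was 1.09 in place of 1.54. The EV-deficient sums without it were 50.7 to 58.02 CPM against 64.5 to 130.2 CPM, with a ratio of 1.84 in place of 2.23. Without the 6 most abundant genes the groups overlap in both derivatives, at 7.96 to 12.1 CPM against 12.02 to 16.7 CPM in the EV-proficient and 11.4 to 15.45 CPM against 13.9 to 34.3 CPM in the EV-deficient one. The 9 variant genes summed to 1571 ± 95 CPM and 1869 ± 94 CPM in EV-proficient DMSO and paclitaxel libraries (SD, n = 3 each), and to 1761 ± 52 and 1456 ± 68 CPM in the EV-deficient ones, so that their sum was higher under the drug in 1 derivative and lower in the other. As a share of the reads on both classes, which does not depend on library scaling, replication-dependent genes held 4.15% ± 0.47 and 5.31% ± 0.50 in EV-proficient DMSO and paclitaxel libraries, and 3.77% ± 0.19 and 9.47% ± 2.09 in the EV-deficient ones (SD, n = 3 each). Without the most abundant gene of each class the EV-proficient order turned, with 6.32% in DMSO and 5.786% in paclitaxel libraries, while the EV-deficient shares were 5.391% and 11.54%. With counts divided by exon length the shares were 10.01%, 12.3%, 9.415% and 20.47% in the order above. No test was made of these sums, since the members were chosen. Other values moved with them: the mitochondrial share of counts was 0.550% to 0.729% in DMSO libraries, 0.846% to 0.907% in EV-proficient and 1.07% to 1.45% in EV-deficient paclitaxel libraries. Rn7sk, the 7SK RNA, which has no poly(A) tail, rose by 0.60 ± 0.14 (log2, SE) under paclitaxel (mean of both EV labels, edgeR quasi-likelihood adjusted p 0.000907), from 2.27 and 3.33 CPM in the 2 DMSO groups to 3.66 and 4.79 CPM. It was named after its values were seen, and the other tested gene of the list of RNAs without a tail, Rnu73b, had means of 0.560 and 0.315 CPM in EV-proficient DMSO and paclitaxel and 0.681 and 0.757 CPM in EV-deficient libraries and did not pass. Small nuclear RNAs summed to 12.1 and 9.54 CPM in the EV-proficient and 11.05 and 14.7 CPM in the EV-deficient groups (means). Small nucleolar RNAs, most of which lack a tail as well, summed to 37.0 to 52.1 CPM in DMSO and 30.0 to 42.5 CPM in paclitaxel libraries. The part of carried-along RNA without a tail in the histone values was not tested.

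**Figure D2:**
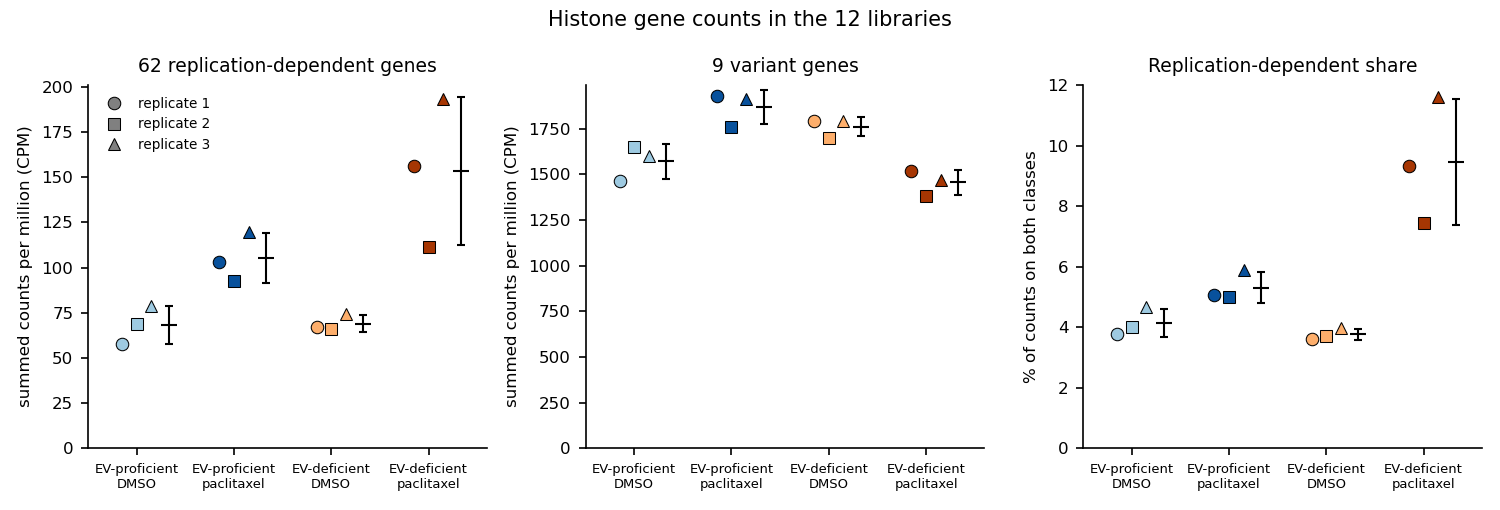
Summed CPM of the 62 replication-dependent and the 9 variant genes and the replication-dependent share of their counts (axes from 0), with 1 point per library and, beside each group, its mean and SD (n = 3). The replication-dependent share is 3.61% to 4.68% in the 6 DMSO libraries, 4.99% to 5.89% in EV-proficient paclitaxel and 7.45% to 11.6% in EV-deficient paclitaxel libraries.

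Within the EV-proficient derivative, 5 of the 36 tested replication-dependent genes rose under paclitaxel and none fell. That is 13.9% of the genes tested, below the 31.1% of all 18108 tested genes that rose (27.1% fell). Their median log2 fold change of 0.06 was close to the 0.05 of all genes. Within the EV-deficient derivative 15 rose and none fell, 41.7% of those tested against a background of 32.4% rising and 30.5% falling, and the median was 0.89 against 0.07 for all genes. All 5 genes of the first derivative were among the 15. They were Hist1h2bc, Hist3h2ba, Hist1h4j, Hist1h2ac and Hist1h3d, the last pair named after their values were seen. Of the 10 most abundant genes 9 rose in the EV-deficient derivative, with standard errors from 0.12 to 0.54, and 6 of the other 26, with standard errors from 0.39 to 0.85. The 10 were ranked over all 12 libraries, those that rose included, so this split is in part built in.

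**Figure D3:**
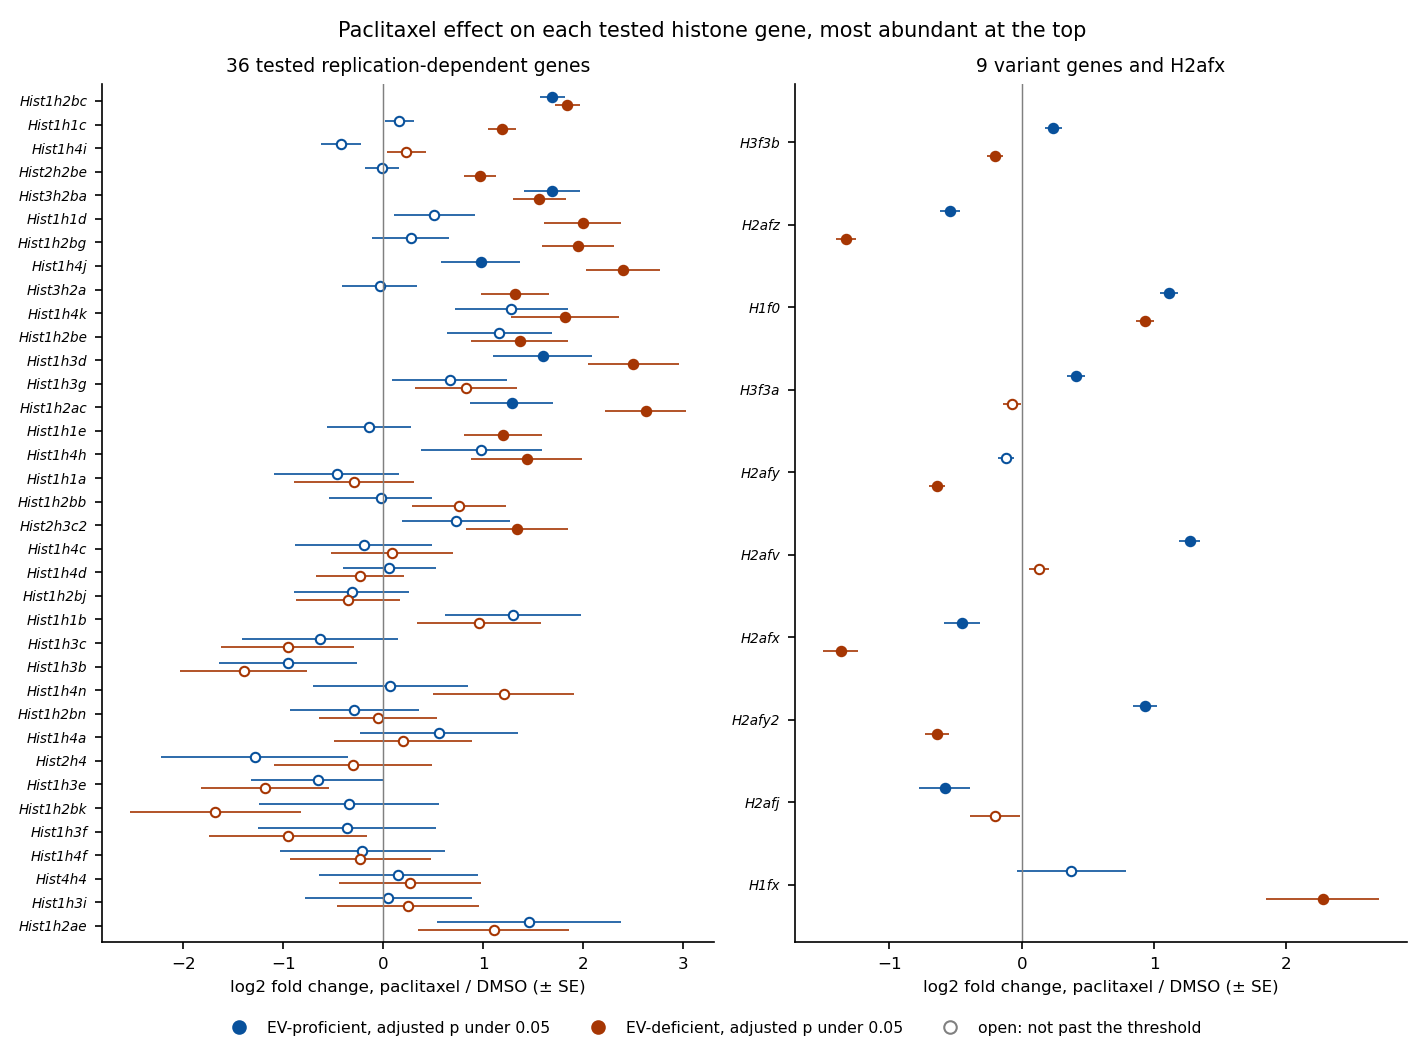
Log2 fold change of paclitaxel against DMSO (± SE) for each tested histone gene in the EV-proficient (blue) and EV-deficient (brown) derivative, ordered by abundance, with filled points past the threshold. Hist1h2bc is at 1.69 and 1.84, Hist1h1c at 0.16 and 1.19, and H2afv at 1.27 and 0.13.

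Hist1h2bc (ENSMUSG00000018102) was the replication-dependent gene with most reads. It had 11.96, 14.1 and 17 CPM in EV-proficient DMSO libraries against 46.4, 39.1 and 53.6 CPM under paclitaxel. Its EV-deficient values were 14.9, 15.1 and 16.2 CPM against 55.1, 46.9 and 62.8 CPM. Every treated library stood above every control. The log2 fold changes were 1.69 ± 0.13 and 1.84 ± 0.12 (SE, edgeR quasi-likelihood adjusted p 2.77e-10 and 3.41e-11), and they did not differ between the derivatives beyond their error (0.15 ± 0.17). Its gene model differs from that of a typical replication-dependent gene. It has 2 exons of 423 and 733 bases on chromosome 13 with an intron of 7554 bases between them. The transcript leaves the coding exon 9 bases after the stop codon, and no match to the stem-loop motif was found in it. The model holds 69.4% unique stretches of 50 bases.

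Hist3h2ba, an H2B gene of the chromosome 11 cluster, rose by much the same amount in both derivatives. Its values were 0.779, 1.15 and 1.90 CPM in EV-proficient DMSO and 4.25, 3.22 and 4.85 CPM in EV-proficient paclitaxel libraries. In the EV-deficient derivative they were 1.46, 1.06 and 1.60 CPM against 3.82, 3.29 and 5.05 CPM. The groups did not overlap within either derivative, and the log2 fold changes were 1.69 ± 0.28 and 1.56 ± 0.27 (SE, edgeR quasi-likelihood adjusted p 2.18e-05 and 2.9e-05). Hist1h2ac, an H2A gene, rose from 0.219, 0.239 and 0.439 to 0.770, 0.668 and 0.728 CPM in the EV-proficient derivative (log2 1.28 ± 0.42 SE, edgeR quasi-likelihood adjusted p 0.0119). Without EV-proficient DMSO replicate 1 that call was lost (log2 1.10, adjusted p 0.0529). The EV-deficient libraries rose from 0.196, 0.250 and 0.241 to 1.42, 0.886 and 1.93 CPM (2.62 ± 0.41, adjusted p 8e-06). Hist1h3d, an H3 gene, rose by 1.59 ± 0.49 and 2.499 ± 0.45, from means of 0.292 and 0.319 to 0.896 and 1.83 CPM. Hist1h4j, an H4 gene, rose by 2.40 ± 0.37 in the EV-deficient derivative. Its rise in the other, 0.97 ± 0.40 with an edgeR quasi-likelihood adjusted p of 0.0405, was lost in 7 of the 12 fits that left out a library (log2 0.66 to 1.09, namely without each EV-proficient DMSO library, EV-proficient paclitaxel replicate 1 or 3, or EV-deficient paclitaxel replicate 1 or 3) and in limma-voom (0.81).

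Hist1h2ac and Hist1h2bc, which both rose in both derivatives, are transcribed away from each other from a shared stretch of 250 bases on chromosome 13. Of the 12 such H2A and H2B pairs among the members, 175 to 305 bases apart, this and the pair of Hist1h2ae with Hist1h2bg are those with both genes tested. In the latter pair Hist1h2bg rose in the EV-deficient derivative only (log2 1.95 ± 0.36, SE). Hist1h2ae passed in neither derivative (1.10 ± 0.76 in the EV-deficient one). In the former pair Hist1h2ac had 398 reads over the 12 libraries and Hist1h2bc 18812. The shared stretch is shown because it lies upstream of the most abundant replication-dependent gene. It is read from RefSeq (GRCm38.p6) on the minus strand, from Hist1h2bc towards Hist1h2ac, with capitals for matches to CCAAT, ATTTGCAT (the octamer of histone H2B promoters) and TATAAA on either strand.
Hist1h2bc to Hist1h2ac, chr13:23683949-23684198, minus strand: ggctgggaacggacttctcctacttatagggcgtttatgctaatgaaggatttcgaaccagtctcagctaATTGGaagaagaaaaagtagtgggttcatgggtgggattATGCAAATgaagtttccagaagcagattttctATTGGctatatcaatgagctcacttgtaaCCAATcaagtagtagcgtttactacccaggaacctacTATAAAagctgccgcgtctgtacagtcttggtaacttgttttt
It holds CCAAT 3 times, the octamer once, in the orientation that faces Hist1h2bc, and TATAAA once, facing Hist1h2ac. In the 250 bases upstream of the start, CCAAT occurred in 80.7% of the 57 replication-dependent genes with a RefSeq window, ATTTGCAT in 19.3% and TATAAA in 47.4%. Over all 32851 windows the shares were 33.8%, 1.6% and 12.4%. Of the 9 variant genes 55.6% held CCAAT and 11.1% each of the others. A match describes the letters only.

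Hist1h1c (ENSMUSG00000036181), by contrast, passed the test in the EV-deficient derivative only, and the difference between the derivatives passed as well. It had 18.8, 19.9 and 21.9 CPM in EV-proficient DMSO libraries and 21.9, 20.7 and 25.5 CPM under paclitaxel, which overlap. In the EV-deficient derivative it went from 17.5, 17.1 and 16.6 CPM to 41.1, 26.7 and 48.6 CPM. The log2 fold changes were 0.16 ± 0.14 and 1.19 ± 0.14 (SE), and their difference was 1.03 ± 0.20 (edgeR quasi-likelihood adjusted p 0.000309). Hist2h2be, an H2B gene with a poly(A) signal in its last 40 bases and no stem-loop match, behaved alike, with 4.77, 3.68 and 3.599 CPM against 4.11, 3.55 and 4.41 CPM in the EV-proficient and 3.66, 3.92 and 4.10 CPM against 7.21, 6.51 and 9.06 CPM in the EV-deficient derivative. Its difference between the derivatives was 0.98 ± 0.24 (adjusted p 0.00203). In both genes EV-deficient paclitaxel replicate 2 was the lowest of its group and replicate 3 the highest.

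Hist1h4i, the H4 gene with most reads, did not pass the test under paclitaxel in either derivative. It had 12.6, 18.6 and 20.5 CPM against 12.6, 12.97 and 12.9 CPM in the EV-proficient derivative (log2 -0.42 ± 0.20 SE, edgeR quasi-likelihood adjusted p 0.0817). The EV-deficient values were 17.3, 15.6 and 19.6 CPM against 19.7, 12.7 and 28.9 CPM (0.23 ± 0.20, adjusted p 0.319). The first difference passed as a fall without EV-proficient DMSO replicate 1 (-0.61), without EV-deficient paclitaxel replicate 2 or 3 (-0.47 each), with no low-count filter (-0.39) and in a fit of the 2 groups alone (-0.41). The second passed as a rise without EV-deficient paclitaxel replicate 2 (0.48). Between the EV labels in paclitaxel libraries Hist1h4i was higher in the EV-deficient derivative by 0.68 ± 0.20 with overlapping groups, a call lost without EV-deficient paclitaxel replicate 3 (0.34). Summed by type, H2B reads were 2.60 and 3.06 times as high under paclitaxel in the EV-proficient and EV-deficient derivatives, and H4 reads 0.856 and 1.33 times. H1 reads were 1.13 and 2.29 times as high, H2A reads 1.48 and 3.00 times, and H3 reads 1.28 and 1.38 times. The treated and control sums overlap for H3 and H4 in both derivatives and for H1 in the EV-proficient one. In the EV-deficient derivative the H3 sums were 3.03 to 4.17 CPM against 2.70 to 7.87 CPM and the H4 sums 19.03 to 24.7 CPM against 16.4 to 38.8 CPM, with the highest in paclitaxel replicate 3.

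The other members of the 10 most abundant were sparse and on average highest in EV-deficient paclitaxel libraries, which also helped some of them into the 10. Hist1h2bg, an H2B gene, had 0.852, 0.359 and 0.878 CPM against 0.711, 0.949 and 0.849 CPM in the EV-proficient derivative and 0.856, 0.646 and 0.482 CPM against 2.66, 1.47 and 3.56 CPM in the EV-deficient one (log2 1.95 ± 0.36 SE, edgeR quasi-likelihood adjusted p 6.61e-05). Hist1h1d, which encodes linker histone H1.3, had 0.584, 0.718 and 1.40 CPM against 1.07, 0.966 and 1.90 CPM, and 0.803, 0.667 and 0.636 CPM against 2.78, 1.34 and 4.26 CPM (1.99 ± 0.39 in the EV-deficient derivative). Hist3h2a, an H2A gene, had 0.633, 0.790 and 0.761 CPM against 0.830, 0.791 and 0.445 CPM, and 0.928, 0.771 and 0.701 CPM against 1.94, 1.06 and 2.97 CPM (1.31 ± 0.34). In all 3 genes the EV-proficient groups overlap and the EV-deficient groups do not. Hist3h2a shares part of its exons with Trim17 on the same strand, so some reads could be counted for either. Hist1h4k, an H4 gene, had 0.410, 0.479 and 0.680 CPM against 2.81, 0.346 and 2.31 CPM in the EV-deficient derivative, with replicate 2 below all controls. Its rise of 1.81 ± 0.54 there was lost without EV-deficient paclitaxel replicate 1 (1.36) and in limma-voom (1.48). In the EV-proficient derivative its difference was 1.28 ± 0.57 (adjusted p 0.0591), which passed as a rise without EV-proficient DMSO replicate 2 (2.08) or EV-deficient paclitaxel replicate 2 (1.23), with no low-count filter (1.31) and in a fit of the 2 groups alone (1.297).

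Over the 36 tested replication-dependent genes, the log2 fold change under paclitaxel was more positive in the EV-deficient derivative for 6 and more negative for none, 16.7% against a background of 16.9% of all tested genes with a more positive and 23.8% with a more negative value there. Beside Hist1h1c and Hist2h2be they were Hist1h2bg (difference 1.67 ± 0.53), Hist1h1d (1.48 ± 0.56), Hist1h4j (1.43 ± 0.54) and Hist3h2a (1.35 ± 0.51, all log2, SE). The count was 3 in the fits that left out EV-proficient DMSO replicate 3, EV-deficient DMSO replicate 2 or EV-deficient paclitaxel replicate 1 or 3, and limma-voom called 2. The call of Hist1h1d was lost in 8 of the 12 fits that left out a library (log2 1.02 to 1.58), all but those without EV-proficient DMSO replicate 1 or 2, EV-proficient paclitaxel replicate 3 or EV-deficient paclitaxel replicate 2. That of Hist1h4j was lost in 9 (1.17 to 1.49), all but those without EV-proficient paclitaxel replicate 3, EV-deficient DMSO replicate 3 or EV-deficient paclitaxel replicate 2, and also with no low-count filter (1.36). That of Hist3h2a was lost in 7 (0.98 to 1.41), all but those without EV-proficient DMSO replicate 1, EV-proficient paclitaxel replicate 1 or 2, EV-deficient DMSO replicate 1 or EV-deficient paclitaxel replicate 2, and also with no low-count filter (1.28). Those of Hist1h2bg, Hist1h1c and Hist2h2be were kept in all 12, and limma-voom lost Hist1h2bg (1.53), Hist1h1d (1.40), Hist1h4j (1.62) and Hist3h2a (1.25; adjusted p 0.0569 to 0.105). Under paclitaxel itself, 9 replication-dependent genes were higher in the EV-deficient than in the EV-proficient libraries and none lower (25.0% of those tested, background 16.0% higher and 21.8% lower). The count was 5 without EV-deficient paclitaxel replicate 3 and 14 without replicate 2. Among these calls, that of Hist1h2ac (log2 0.97 ± 0.37, SE) was lost in 8 of the 12 fits that left out a library (0.68 to 1.03). It was also lost with no low-count filter (0.95) and in a fit of the 2 groups alone (1.00). That of Hist1h1d (1.14 ± 0.38) was lost in 3 of the 12 (0.71 to 1.02). In DMSO libraries edgeR called none of the 36 between the EV labels, none had an unadjusted p under 0.05, and neither DESeq2 nor limma-voom called any (background 12.4% higher and 10.6% lower). The log2 fold changes there, EV-deficient against EV-proficient, were positive for 29 genes and negative for 7. Their median was 0.32 against 0.04 for all genes.

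Averaged over both derivatives, 15 replication-dependent genes rose under paclitaxel (background 37.1%) and 1 fell (background 31.3%). The median log2 fold change was 0.50 against 0.07 for all genes. The gene that fell, Hist1h3b, an H3 gene named after its values were seen, had means of 0.309 and 0.508 CPM in the DMSO groups and 0.149 and 0.186 CPM under paclitaxel (log2 -1.17 ± 0.47 SE, edgeR quasi-likelihood adjusted p 0.0314). Its call was lost in 7 of the 12 fits that left out a library (log2 -1.21 to -0.95, namely without EV-proficient DMSO replicate 1 or 3, EV-proficient paclitaxel replicate 1 or 3, EV-deficient DMSO replicate 2 or 3, or EV-deficient paclitaxel replicate 2) and with upper-quartile scaling (-1.06). Hist3h2a was called in this average too (0.64 ± 0.25), a call lost in 7 of those fits (0.41 to 0.63), all but those without EV-proficient DMSO replicate 2 or 3, EV-proficient paclitaxel replicate 3, EV-deficient DMSO replicate 1 or EV-deficient paclitaxel replicate 2. It was also lost in limma-voom (0.61, adjusted p 0.0742).

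The variant genes moved in both directions. Under paclitaxel 5 rose and 2 fell in the EV-proficient derivative, and 2 rose and 4 fell in the EV-deficient one. The background is as above, with 31.1% and 27.1% of all tested genes rising and falling in the first and 32.4% and 30.5% in the second. Upper-quartile scaling, which moved the median of all genes in the EV-deficient comparison from 0.07 to 0.26, gave 3 rising and 3 falling there. Averaged over both derivatives 4 variant genes rose and 3 fell, against a background of 37.1% and 31.3% of all tested genes. Upper-quartile scaling gave 6 and 2 there and moved the median of all genes from 0.07 to 0.19. H1f0 and H2afz had the same direction in both derivatives, whereas H2afy2 and H3f3b passed in opposite directions.

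H1f0 (ENSMUSG00000096210), the gene of linker histone H1.0, rose in both derivatives. It had 132, 154 and 149 CPM in EV-proficient DMSO and 312, 297 and 331 CPM in EV-proficient paclitaxel libraries. In the EV-deficient derivative it had 128, 129 and 131 CPM against 260, 227 and 253 CPM. All treated libraries were above all controls, with log2 fold changes of 1.11 ± 0.07 and 0.93 ± 0.07 (SE, edgeR quasi-likelihood adjusted p 1.45e-11 and 1.15e-10) whose difference did not pass the threshold (-0.18 ± 0.10, adjusted p 0.146). With Hist1h1c and Hist1h1d it belongs to the linker histones, which bind the DNA between nucleosomes. H1fx, the gene of the linker histone H1.10, was at 0.511, 1.24 and 1.02 CPM against 0.869, 1.05 and 1.78 CPM in the EV-proficient derivative, which overlap. It went from 0.285, 0.250 and 0.636 CPM to 1.19, 1.77 and 2.66 CPM in the EV-deficient one (log2 2.27 ± 0.43 SE, adjusted p 8.17e-05). The difference of 1.90 ± 0.59 between the derivatives was lost without EV-proficient DMSO replicate 2 (1.60, adjusted p 0.0508). H1fx overlaps the antisense gene Gm5577, and whether counting used strand is not given in the sources used here.

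H2afz (ENSMUSG00000037894), the main H2A.Z gene, fell in both derivatives. Its values were 295, 340 and 334 CPM in EV-proficient DMSO and 226, 216 and 222 CPM in EV-proficient paclitaxel libraries. The fall was larger in the EV-deficient derivative, from 429, 405 and 444 CPM to 176, 147 and 187 CPM. The log2 fold changes were -0.54 ± 0.08 and -1.33 ± 0.08 (SE), with a difference of -0.78 ± 0.11 (edgeR quasi-likelihood adjusted p 4.88e-06). H2afv, the other H2A.Z gene, went the other way in the EV-proficient derivative, from 22.6, 26.8 and 22.2 CPM to 56.3, 60.5 and 55.9 CPM (1.27 ± 0.08). In the other derivative it had 30.5, 31.5 and 32.5 CPM against 35.6, 32.8 and 35.01 CPM (0.13 ± 0.08, adjusted p 0.146), which passed as a rise with upper-quartile scaling (0.32) and with a filter of 1 CPM in 3 libraries (0.20).

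The macroH2A genes H2afy and H2afy2 differed as well. H2afy2 went from 11.1, 11.01 and 9.98 CPM to 20.2, 21.1 and 20.0 CPM under paclitaxel in the EV-proficient derivative and from 16.5, 16.3 and 17.8 CPM to 11.02, 10.6 and 10.8 CPM in the EV-deficient one. Its log2 fold changes of 0.93 ± 0.09 and -0.64 ± 0.09 (SE) differed by -1.57 ± 0.13 (edgeR quasi-likelihood adjusted p 3.18e-09), with no overlap of the groups in either derivative. H2afy2 shares part of its exons with Aifm2 on the opposite strand. Over the 12 libraries Aifm2 had 13418 reads and H2afy2 8231, and whether counting used strand is not given. H2afy fell from 125, 126 and 122 CPM to 82.1, 77.6 and 80.2 CPM in the EV-deficient derivative (-0.64 ± 0.06), against 103, 120 and 114 CPM and 106, 99.7 and 105 CPM in the EV-proficient one (-0.12 ± 0.06, adjusted p 0.105). The latter passed as a fall in DESeq2 (-0.14) and without EV-proficient DMSO replicate 1, EV-proficient paclitaxel replicate 1 or any 1 of the EV-deficient paclitaxel libraries (-0.19 to -0.17).

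The H3.3 genes moved by less than most other variants. H3f3b, the most abundant histone gene of the table, had 733, 801 and 791 CPM in EV-proficient DMSO and 972, 849 and 924 CPM in EV-proficient paclitaxel libraries (log2 0.24 ± 0.06 SE, edgeR quasi-likelihood adjusted p 0.00206). That rise was lost without EV-proficient paclitaxel replicate 1 (0.15, adjusted p 0.0808). It fell in the EV-deficient derivative from 842, 786 and 835 CPM to 746, 689 and 703 CPM (-0.20 ± 0.06), a call lost with upper-quartile scaling (-0.02, adjusted p 0.778). H3f3a rose by 0.41 ± 0.07 in the EV-proficient derivative, from 161 to 189 CPM in its DMSO libraries to 212 to 249 CPM under paclitaxel, and had 201 to 214 against 192 to 200.2 CPM in the other (-0.08 ± 0.07). H3f3a overlaps an antisense gene, H3f3aos, whose counts are far lower. H2afj, which encodes an H2A variant of mammals, had 7.28, 6.39 and 5.73 CPM against 3.56, 3.41 and 6.39 CPM in the EV-proficient derivative (-0.58 ± 0.19). Those groups overlap, and the call was lost without EV-proficient DMSO replicate 1 or EV-proficient paclitaxel replicate 1 or 2 (-0.49 to -0.47).

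**Figure D4:**
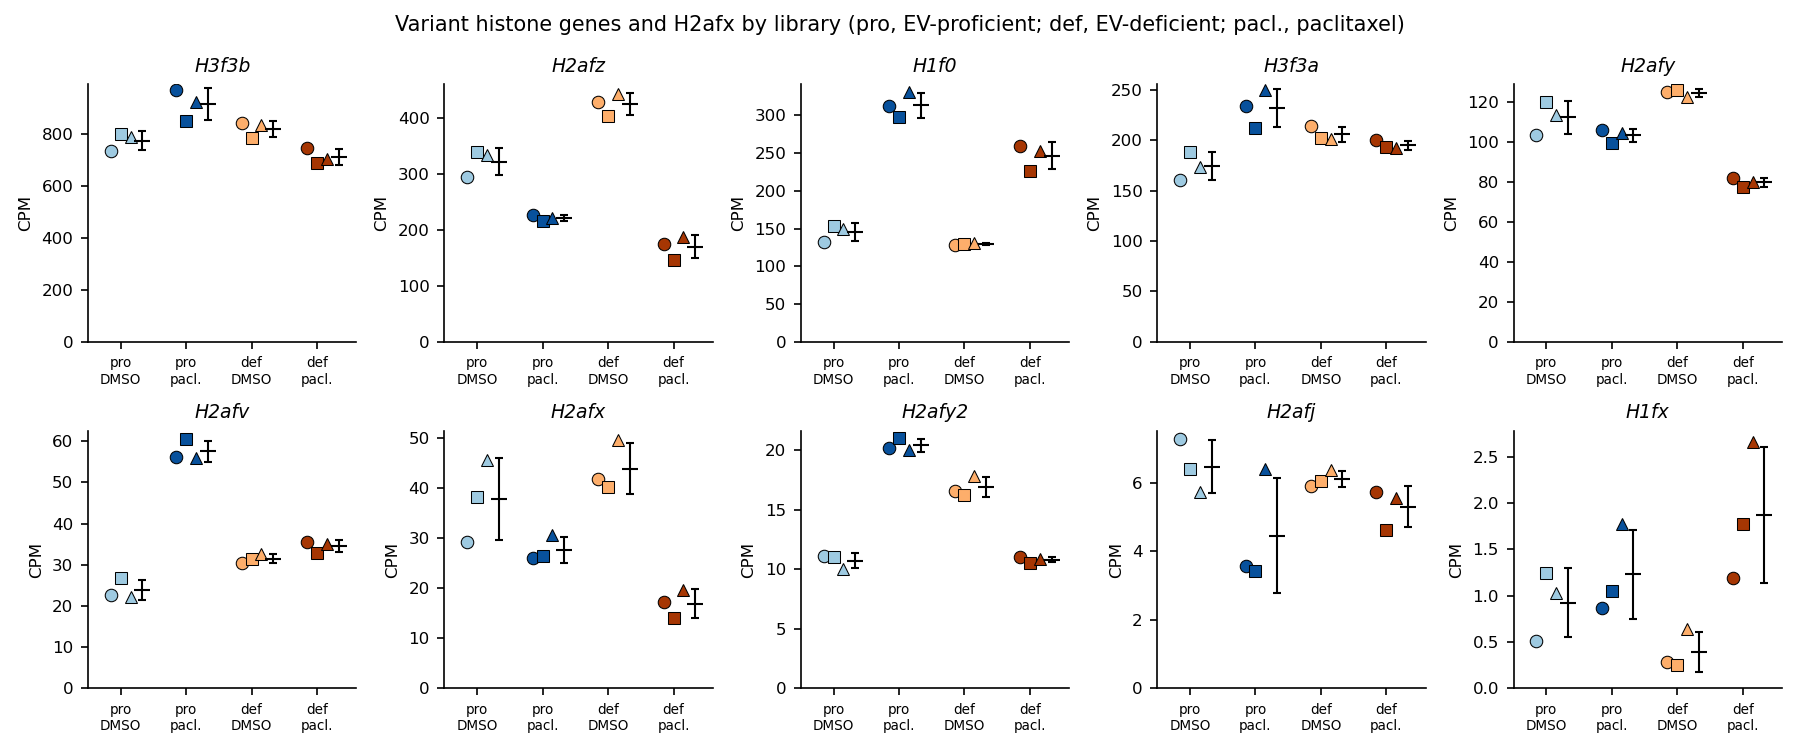
CPM of the 9 variant genes and H2afx in each library (axes from 0, mean and SD beside each group, n = 3), ordered by abundance. H1f0 is higher and H2afz lower under paclitaxel in both derivatives, whereas H2afy2 is higher in the EV-proficient (20.0 to 21.1 against 9.98 to 11.1 CPM) and lower in the EV-deficient derivative (10.6 to 11.02 against 16.3 to 17.8 CPM).

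H2afx (ENSMUSG00000049932), whose product is the H2A variant phosphorylated at DNA breaks, fell in both derivatives. It had 29.3, 38.2 and 45.6 CPM against 25.9, 26.4 and 30.7 CPM in the EV-proficient derivative, where the groups overlap (log2 -0.45 ± 0.13 SE, edgeR quasi-likelihood adjusted p 0.00613). That call was lost without EV-proficient DMSO replicate 3 (-0.29, adjusted p 0.0712). In the EV-deficient derivative it fell from 41.7, 40.2 and 49.6 CPM to 17.2, 14.0 and 19.6 CPM (-1.37 ± 0.13, adjusted p 1.13e-08). The difference between the derivatives was -0.92 ± 0.19 (adjusted p 0.000444). Its gene model runs 822 bases past the stem-loop.

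Between the EV labels, 4 variant genes passed in opposite directions in the 2 treatments. If the EV labels of 1 treatment were exchanged, these 4 genes would have the same direction in both treatments. In DMSO libraries 4 were higher in the EV-deficient derivative and 1 lower (background 12.4% and 10.6%, or 4 and 2 with upper-quartile scaling), and in paclitaxel libraries 7 of 9 were lower and none higher (background 21.8% and 16.0%, or 6 and none with upper-quartile scaling). H2afy2 was at 0.66 ± 0.09 in DMSO and -0.92 ± 0.09 in paclitaxel libraries, H2afv at 0.40 ± 0.08 and -0.74 ± 0.08, H2afz at 0.40 ± 0.08 and -0.38 ± 0.08, and H3f3a at 0.24 ± 0.07 and -0.25 ± 0.07 (log2, EV-deficient against EV-proficient, SE). With upper-quartile scaling the last was lost (-0.15, adjusted p 0.0632 in edgeR's quasi-likelihood test). H1f0 was at -0.35 in paclitaxel libraries (adjusted p 0.000345) and at -0.17 in DMSO libraries (0.0845). The latter passed as lower in DESeq2, with upper-quartile scaling, in a fit of the 2 groups alone, and without EV-proficient DMSO replicate 1 or any 1 of the 6 paclitaxel libraries (-0.23 to -0.19). The gene lower in DMSO was H1fx (-1.25 ± 0.44, edgeR quasi-likelihood adjusted p 0.0449). Without EV-deficient DMSO replicate 1 the DMSO count was 3, since H1fx (-1.06) and H3f3a (0.21) were lost. H1fx was also lost without EV-deficient DMSO replicate 2, EV-proficient DMSO replicate 2 or 3, or EV-proficient paclitaxel replicate 2 and in limma-voom (-1.28, adjusted p 0.11), and H3f3a without EV-proficient DMSO replicate 1 (0.19). In the test of the difference, 6 variant genes had a more negative log2 fold change under paclitaxel in the EV-deficient derivative and 1, H1fx, a more positive one (background 23.8% and 16.9%).

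Most genes of DNA replication, stem-loop processing and histone deposition were lower under paclitaxel. Of 30 genes of S phase, all 30 fell in the average of both derivatives (median log2 -0.91), where 31.3% of all tested genes fell and 37.1% rose, among them Cdc6, which loads the replicative helicase (-2.06 ± 0.08), its subunit gene Mcm5 (-1.71 ± 0.07), Tyms, which makes thymidylate (-1.70 ± 0.09), and Ccne2, an S-phase cyclin (-1.48 ± 0.09). In the EV-proficient derivative 24 fell and 1 rose (background 27.1% and 31.1%), and in the EV-deficient one 30 fell (background 30.5%). Slbp, the stem-loop binding protein, went from 65.3 ± 3.1 to 43.9 ± 1.2 CPM in the EV-proficient and from 68.7 ± 2.1 to 37.0 ± 4.2 CPM in the EV-deficient derivative (SD, n = 3 each). Those changes were -0.57 ± 0.08 and -0.89 ± 0.08 (log2, SE, edgeR quasi-likelihood adjusted p 1.3e-06 and 1.27e-09). Npat, the coactivator of histone gene transcription, had 58.9 ± 3.9, 57.6 ± 5.6, 61.4 ± 0.7 and 60.4 ± 4.9 CPM in EV-proficient DMSO and paclitaxel and EV-deficient DMSO and paclitaxel libraries (SD, n = 3 each), and did not pass in either derivative. Of 18 genes of stem-loop processing and histone transcription 15 fell and 1, Lsm10 of the U7 particle, rose by 0.27 ± 0.10 (median -0.50, average of both derivatives with the same background). Srrt (-1.22 ± 0.04), Zfp473 (-0.94 ± 0.10), Slbp (-0.73 ± 0.05) and Cstf2 (-0.71 ± 0.05) changed most. Cstf2 encodes a cleavage factor shared with poly(A) addition, Srrt a cap-binding partner and Zfp473 a zinc finger protein of the U7 complex.

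Of 27 tested histone chaperone and deposition genes 20 fell and 2 rose (median -0.45, average of both derivatives, background 31.3% and 37.1%). In the EV-proficient derivative 18 fell and 5 rose (background 27.1% and 31.1%), and in the EV-deficient one 22 fell and 1 rose (background 30.5% and 32.4%). Chaf1a, the large subunit of the chaperone that loads new H3 and H4 behind the fork, fell by 1.25 ± 0.06. Asf1b, which passes it those histones, fell by 1.03 ± 0.07, the importin Ipo4 by 1.18 ± 0.06 and Ssrp1 of the FACT complex by 0.83 ± 0.05. The 2 that rose were Atrx (0.26 ± 0.05) and Ubn2 (0.52 ± 0.07), which belong to complexes that deposit H3.3 outside replication. Of 15 genes of poly(A) addition 10 fell and 2 rose (median -0.25, same average and background), with Cpsf4 (-0.84 ± 0.05), Cstf1 (-0.74 ± 0.05), Cstf3 (-0.57 ± 0.05) and Wdr33 (-0.45 ± 0.04) changing most. In the EV-proficient derivative 7 of the 15 fell and 3 rose (median -0.10). In the EV-deficient one 11 fell and 0 rose (median -0.44), with the backgrounds given above for each derivative. These lists were chosen with results of these data known, and their counts are a description.

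**Figure D5:**
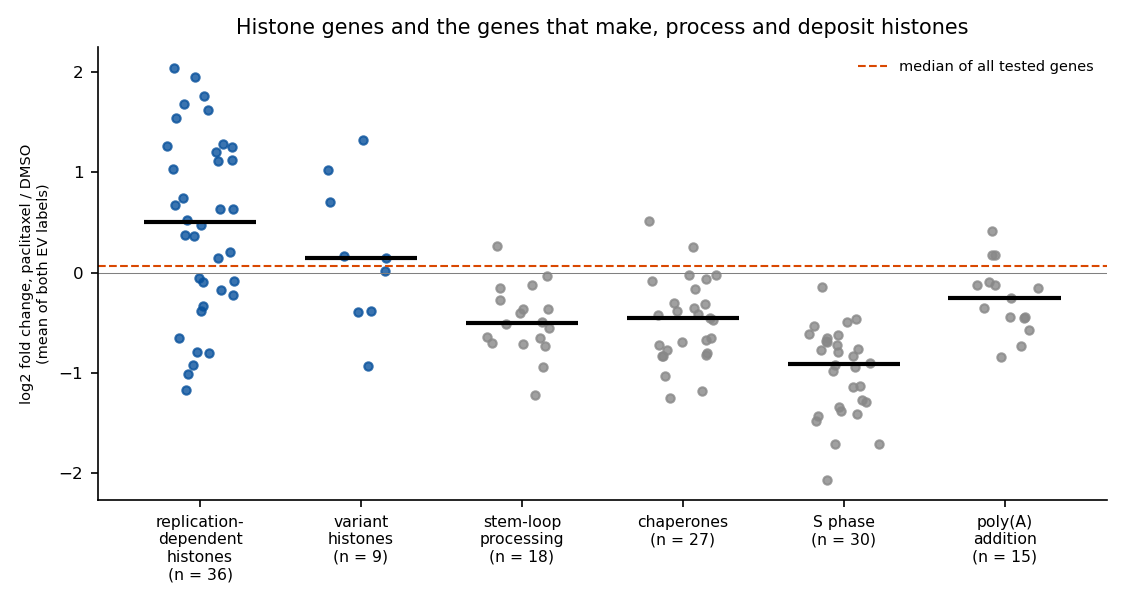
Log2 fold change of paclitaxel against DMSO, averaged over both derivatives, for each tested gene of the replication-dependent and variant histones and of 4 lists, with bars for medians and a dashed line for the median of all 18108 tested genes (0.07). The medians are 0.50 for replication-dependent and 0.14 for variant genes and lie between -0.91 and -0.25 for the lists.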

How the data were processed

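Polyadenylated RNA had been selected with oligo-dT beads and the library kit keeps the strand, per the labels' protocols. Raw counts of reads per gene in 12 libraries were deposited as 1 table by the authors. The submitters' processing notes name STAR 2.5.0a and GRCm38, whereas the counting program and its strand setting are not given in the sources used here. The 2 rows that the authors added to the table, gfp and dngfr, held at most 0.00142% of a library's counts and were left out. Genes of the table were placed on GENCODE M21 by identifier (55240 of 55421 matched), which gave exon lengths, stem-loops and stretches of 50 bases held by no other gene.

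Counts were scaled by trimmed means of M values and converted to CPM. In R 4.3.3, edgeR 4.0.16 tested the 18108 genes that passed its expression filter (minimum count 10, 35104 genes with any count) with a quasi-likelihood model of 1 mean per group over the 12 libraries. Paclitaxel was compared with DMSO in either derivative and on average, the derivatives were compared in either treatment, and the interaction tested whether the drug effects differed. P-values were adjusted by Benjamini-Hochberg over all genes tested in each comparison, with a threshold of 0.05, and errors of log2 fold changes are standard errors. They measure the spread between these libraries, which may be technical. A fold change of a gene with few counts depends on the prior count. The model was tested on simulated data. The alternatives were DESeq2 1.42.0, limma-voom (limma 3.58.1), other scalings and filters, a replicate block, fits of 2 groups alone, and leaving out each library.

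The members and gene lists were chosen with earlier results of these data known. Named members were the 10 replication-dependent genes with most reads, the variant genes and H2afx, and per comparison the 3 highest and 3 lowest changes past the threshold among members with a mean of at least 1 CPM. Each list contributed the genes with the largest mean change, at most 4, with Slbp, Npat, Chaf1a and Asf1b always named. Lsm10, Atrx, Ubn2 and Rn7sk were named after their values were seen. Promoter windows matched 75 of the 81 members. Libraries of a group differed by more than sampling noise, with a chi-square per degree of freedom of 4.34 to 31.4 in the 12 pairs.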

Additional observations from a re-analysis of the deposited data

Results flagged for a closer look

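The interaction term in edgeR's quasi-likelihood test found that the effect of paclitaxel differed between the EV labels for 14 of 46 tested histone members. Of these 7 had a more positive and 7 a more negative log2 fold change in the EV-deficient derivative, where 16.9% and 23.8% of all tested genes did, so the share of members is below the background. The log2 effect in the EV-deficient minus that in the EV-proficient derivative was 1.03 for Hist1h1c, 1.48 for Hist1h1d, 1.67 for Hist1h2bg, 1.43 for Hist1h4j, 0.98 for Hist2h2be, 1.35 for Hist3h2a and 1.90 for H1fx. It was -0.92 for H2afx, -1.14 for H2afv, -0.52 for H2afy, -1.57 for H2afy2, -0.78 for H2afz, -0.49 for H3f3a and -0.44 for H3f3b. The positive values belong to 6 replication-dependent genes and H1fx, and the negative ones to H2afx and 6 variant genes. If the EV labels of 1 treatment were exchanged, each of these differences would be a difference between the derivatives over both treatments, and the labels alone do not settle which it is.

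The added dngfr row held at least 93 counts in every library, outside the genes analysed, while the gfp row was at 0 in all 12. H3f3aos, a noncoding gene on the strand opposite H3f3a, rose under paclitaxel by 2.21 ± 0.27 (log2, SE, edgeR quasi-likelihood adjusted p 2.5e-07, average of both EV labels). Its counts were 11, 12 and 11 in EV-proficient DMSO and 121, 77 and 24 in EV-proficient paclitaxel libraries, and 20, 11 and 21 against 73, 70 and 76 in the EV-deficient ones. Since the strand setting of the counting is not given, reads of H3f3a and H3f3aos cannot be told apart where they overlap.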

How the results depend on the processing

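Counts and shares gave 16 results, and 242 of their 260 alternatives stayed within 1.5 times the count or 1 SD of the share. The exceptions were as follows, and their cause was not tested except where the setting itself changes what is counted. With no low-count filter 8 replication-dependent members rose in the EV-proficient derivative. Fitting only the DMSO libraries called 1 of them between the EV labels, and limma-voom called 2 in the interaction. With counts divided by exon length, the replication-dependent share was 10.01%, 12.3%, 9.415% and 20.47% in EV-proficient DMSO and paclitaxel and EV-deficient DMSO and paclitaxel libraries. Without the most abundant gene of each class it was 6.32%, 5.786%, 5.391% and 11.54% in the same order, which turns the EV-proficient difference, and with genes of at least 50% unique stretches 3.536% in EV-deficient DMSO.

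With each library left out, replication-dependent members called ranged from 4 to 7 (EV-proficient), 11 to 19 (EV-deficient), 0 to 1 (DMSO, 1 without EV-deficient paclitaxel replicate 2), 5 to 14 (paclitaxel libraries, without EV-deficient paclitaxel replicate 3 and 2), 3 to 9 (interaction) and 13 to 17 (average). Variant members called ranged from 6 to 8, 6 to 6, 3 to 6, 7 to 8, 6 to 8 and 7 to 7 in the same order, and the 3 was without EV-deficient DMSO replicate 1. Where this leaves 2 libraries in a group, the spread is pooled over all groups. The shares ranged from 3.89% to 4.34%, 5.02% to 5.47%, 3.66% to 3.85% and 8.39% to 10.5%.

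Replicate numbers were not shown to pair the libraries, since same-numbered libraries had correlations of -0.0812 to 0.097 between their deviations. With the replicate block 6, 15, 0, 9, 5 and 16 replication-dependent and 7, 6, 5, 7, 7 and 7 variant members were called. The block ended the interaction call of Hist3h2a (1.31, adjusted p 0.0556) and the call of Hist1h2ac between the EV labels under paclitaxel (0.90, 0.0609), and added that of Hist1h2bc there (0.25, 0.0319). No other call of a named member changed with the block. Both calls that it ended were also lost in other settings, as given above. For the 23 named members no alternative reversed a call: 2552 values kept their side of the threshold, 90 lost and 66 gained it. Standard errors in the EV-deficient comparison were 0.39 to 0.85 for the 26 sparser replication-dependent genes and 0.12 to 0.54 for the 10 most abundant. The median log2 fold changes there were 0.22 (15 positive and 11 negative) and 1.69 (10 positive and 0 negative). The 10 were ranked over all 12 libraries, so this split is in part built in. The parts of depth and of effect size in the fewer calls of the sparser genes cannot be told apart.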
